A study of Mus musculus with 2 samples.

Results

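Integrins are the receptors with which animal cells hold on to the matrix around them, and laminins, nidogens and fibronectin are the matrix proteins that many of them bind. The set described here holds 34 genes of the 21937 gene features counted, chosen by name: 21 integrin genes (13 alpha and 8 beta subunits), 10 laminin genes, the nidogens Nid1 and Nid2, and fibronectin, Fn1. All 34 symbols occurred once in the feature list.

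Each integrin is a pair of 1 alpha and 1 beta subunit, and the pair sets which ligand is bound. The beta1 subunit joins most alpha subunits, whereas alpha 6 also joins beta4, alpha 4 and alpha v accept several beta subunits, and beta2, beta3 and beta7 are best known from blood cells. Laminins are trimers of an alpha, a beta and a gamma chain that assemble into the sheet of a basement membrane, which nidogens link to the collagen IV network. Fibronectin is the main fibrillar ligand of the early embryo and is bound through its RGD motif. In the embryo these genes are known for the attachment of epidermis to its basement membrane, the support of new vessels and the homing of blood cells.

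The cells were those of mouse embryos collected at E11.5, all with a transgene for EGFP linked to a DNA barcode, driven by the broadly active CAG promoter and integrated by the piggyBac transposase. Suspensions F0_8 and F0_9 were each 1 founder embryo grown from an injected egg, F1_1 was a single F1 embryo, bred from founders, and F1_mix was a mixture made from the cells of 2 other F1 embryos. All groups therefore carried the transgene, no suspension without it was analysed here, and founders can be mosaic for it. The embryos were dissociated with trypsin, tagged with a multiplexing oligo per suspension, and run as 1 droplet library with a 3′ chemistry that counts unique molecular identifiers (UMIs).

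Of 6006 deposited barcodes, 5678 carry an annotation in the authors' cell table and were used, 1310 to 1599 per suspension, with 16052917 to 19160116 gene UMIs per suspension and 0 barcodes shared between suspensions. A level is given below as UMIs of a gene per 10000 gene UMIs outside mitochondrial genes, summed over the cells of an annotated type, with an exact Poisson 95% interval that covers counting error only. Because the types were made from these same cells and genes, differences between types are described and not tested, and stability is shown by the 4 suspensions. In 12 annotated types the median depth was 10898.5 to 29076 gene UMIs, and these are called deep. In the 4 others (Endodermal Progenitor, Foregut, Hepatocyte and Midgut) it was 721.5 to 1674, with 23% to 55.9% mitochondrial UMIs at the median, and these are called shallow. The names were checked against 4 markers each. Compared among the 12 deep types, a type's own markers were highest in it for 7. They were not for CNS Neuron, Neuronal Progenitor, Neuroectoderm/Glia, Chondrocyte and Erythroblast. Of the 7, Ependymal Cell held its markers at 4.75, below the 7.54 of the shallow Foregut type. In each of the 4 shallow types, the type's own markers were lower than in the highest deep type. The names are therefore used below only as the annotation gives them. The Chondrocyte markers were at 7.06 in Chondrocyte and 8.78 in Gut Mesenchyme/Amniotic Mesoderm. The Hepatocyte markers were at 0.0610 in Hepatocyte, with Afp at 0 UMIs and Alb at 1, and at 13.7 in Ependymal Cell, where all 2436 UMIs were of Ttr, a gene that choroid plexus also expresses. Among the deep types the Endodermal Progenitor markers were highest in Epithelial Cell, at 10.8.

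Across the deep types, the highest level lay in the Hematoendothelial Progenitor/Endothelium type (called Hematoendothelial below) for 9 members, in Chondrocyte for 8, in Epithelial Cell for 8, in Neuronal Progenitor for 3, in Ependymal Cell for 2, in Gut Mesenchyme/Amniotic Mesoderm (Gut Mesenchyme below) for 2, and in Erythroblast and Neuroectoderm/Glia for 1 each. In what follows, the highest type of a gene is the highest of the 12 deep types. For most members a shallow type had a higher pooled level, and those values are given with the shallow types. The CNS Neuron, Mesodermal Progenitor, Myoblast/Cardiomyocyte and Erythrocyte types were highest for 0 members. Of the 18 members with 100 or more UMIs in their highest type, 11 (61.1%) were highest in Hematoendothelial, Chondrocyte or Epithelial Cell, against 19.1% of the 9443 genes of that depth. These 3 types were picked after the members' levels were seen, so the share only describes them.

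A member was called restricted when its highest deep type reached at least 4 times the median deep type in each suspension, and 16 of the 34 met this. Where the median of a suspension was 0, more than 3 UMIs in the highest type were asked for instead, which Itgb7 missed with 2 UMIs in F1_mix. The share has to be read against all genes of like depth. Of the 18 members with 100 or more UMIs in their highest type, 8 were restricted (44.4%), against 18.8% of the 9443 genes of that depth. The highest type was the same in all 4 suspensions for 5 of these 18 (27.8%), against 35.8% of the 9443 genes. Over all 34 members it was the same in all 4 suspensions for 14, and for 10 the highest type lay above the next type without overlap of the suspensions' values. Among the 18 with 100 or more UMIs that last count was 4 (22.2%), against 28.4% of the 9443 genes.

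**Figure D1:**
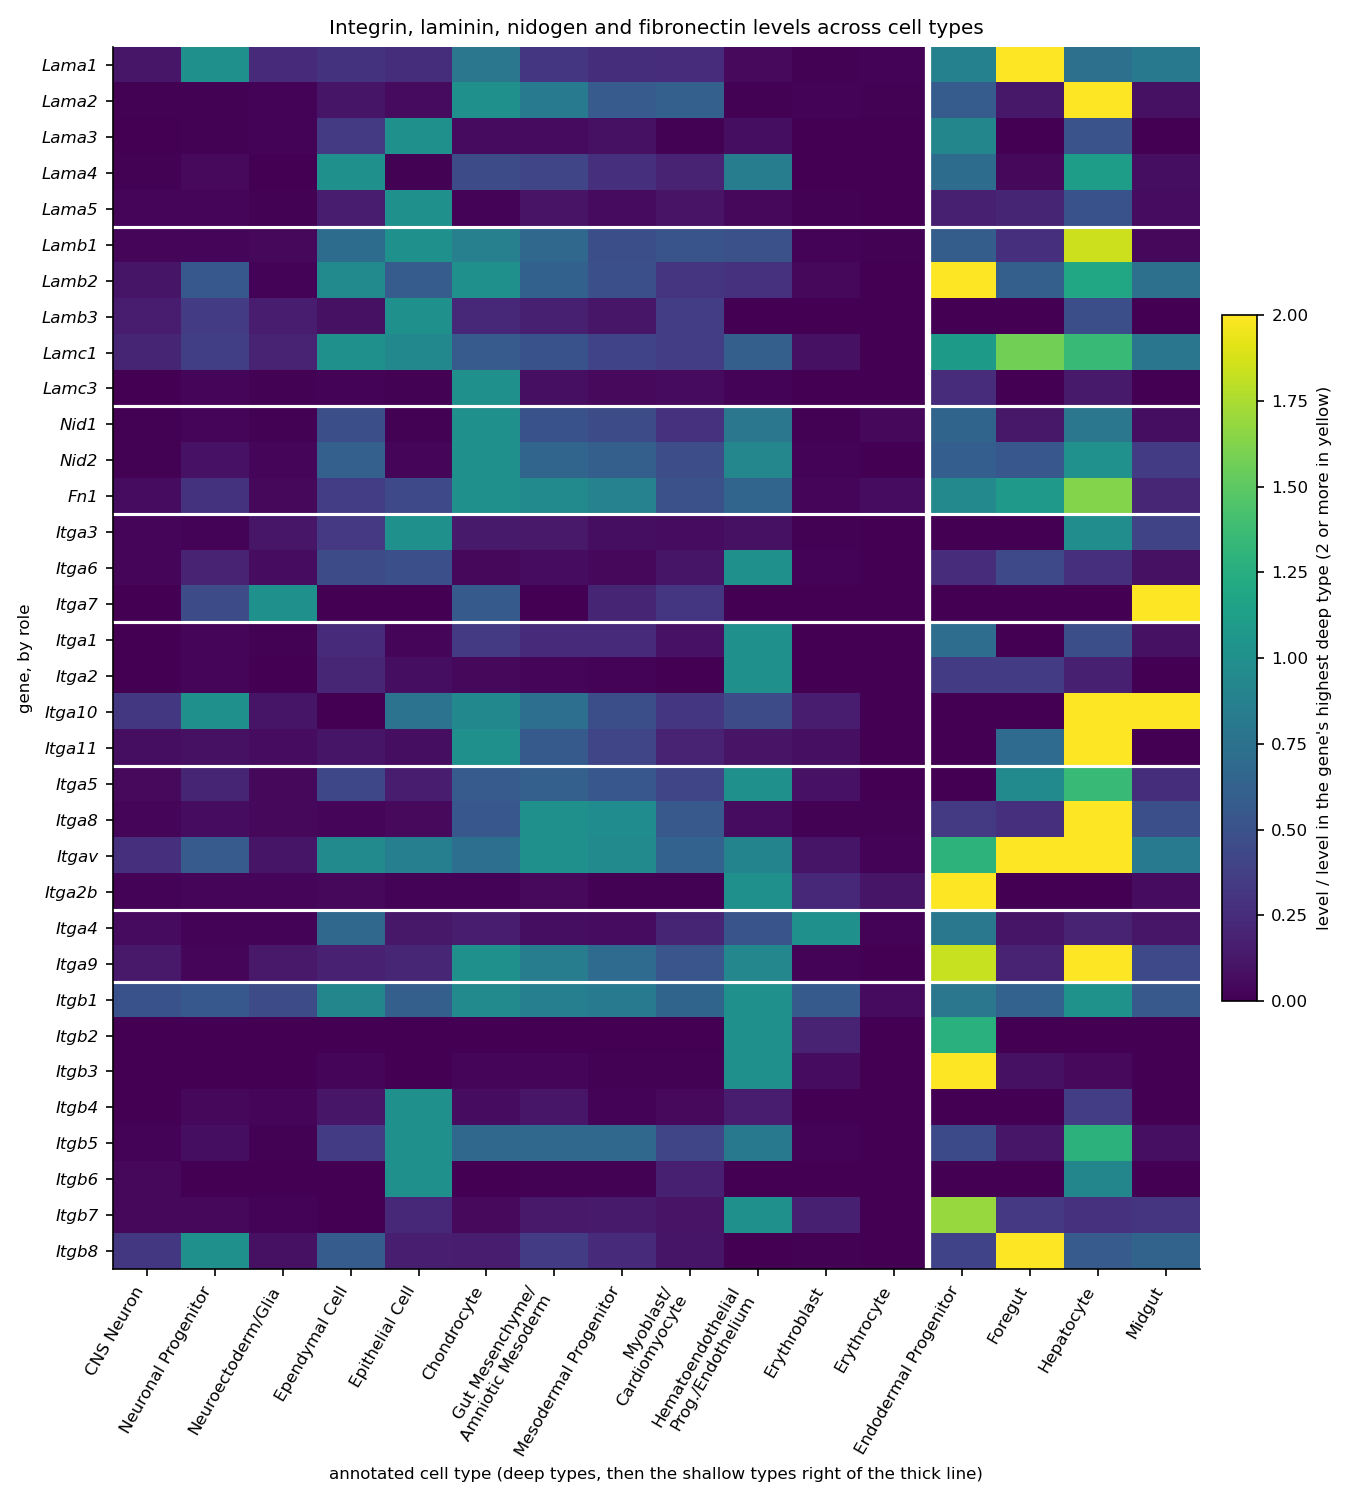
Level of each of the 34 members (rows, grouped by role) in the 16 annotated cell types (columns), as a multiple of the gene's own level in its highest deep type, suspensions pooled; values of 2 or more are drawn in yellow, and rows are comparable only within a gene. Deep types stand left of the thick white line and shallow types right of it. Among the deep types Lama5, Itga3, Itgb4 and Itgb6 are brightest in Epithelial Cell, Lamc3 in Chondrocyte, and Itga1, Itga2, Itgb2 and Itgb3 in Hematoendothelial.

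The 5 laminin alpha chains, which decide what receptors a laminin binds, were highest in 4 different types. Lama5, the chain of most epithelial basement membranes, was highest in Epithelial Cell at 0.525 (95% interval 0.439 to 0.622), 27.3 times the median deep type. Its level there was 0.474 (F0_8), 0.519 (F0_9), 0.432 (F1_1) and 0.709 (F1_mix), and no suspension of any other deep type reached the lowest of these, the next type being Ependymal Cell at 0.0845. Lama3, the chain of the epidermal anchoring laminin, was also highest in Epithelial Cell, at 0.0994 (95% interval 0.0643 to 0.147) from 25 UMIs. In F1_mix its 5 UMIs in Epithelial Cell and 4 in Ependymal Cell both came to a level of 0.0844.

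Lama2, the alpha chain of muscle basement membrane, was high in 4 deep types. It was highest in Chondrocyte at 1.42 (95% interval 1.30 to 1.55), with 1.43 (F0_8), 1.53 (F0_9), 1.51 (F1_1) and 1.21 (F1_mix). Gut Mesenchyme (1.18), Myoblast/Cardiomyocyte (0.870) and Mesodermal Progenitor (0.820) followed, while no other deep type was above 0.163. The Myoblast/Cardiomyocyte level was carried by its skeletal cells. The Chondrocyte and Gut Mesenchyme values of the suspensions overlapped, so the order of these 2 was not separated from their spread.

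Lama4, known from vessel walls, was highest in Ependymal Cell at 0.907 (95% interval 0.773 to 1.06), ahead of Hematoendothelial at 0.772 (95% interval 0.633 to 0.933). In Ependymal Cell it was 1.11 (F0_8), 1.36 (F0_9), 0.705 (F1_1) and 0.485 (F1_mix), and in Hematoendothelial 1.88 (F0_8), 0.726 (F0_9), 0.425 (F1_1) and 0.124 (F1_mix). The Hematoendothelial value was the larger in F0_8 alone, and the 2 types overlapped. Lama1, the alpha chain of the earliest embryonic basement membranes, was highest among the deep types in Neuronal Progenitor at 0.730 (95% interval 0.673 to 0.790) and next in Chondrocyte at 0.578 (95% interval 0.501 to 0.665), and the order was turned in F1_mix.

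Among the beta and gamma chains, Lamb1 and Lamc1, shared by many laminin trimers, were broad. Lamb1 was highest in Epithelial Cell at 0.771 (95% interval 0.666 to 0.887), with 0.846 (F0_8), 0.626 (F0_9), 0.773 (F1_1) and 0.844 (F1_mix), only 2.05 times the median deep type, and other types were higher in F0_8 and F0_9. Lamc1 was highest in Ependymal Cell at 0.840 (95% interval 0.710 to 0.986), with 0.901 (F0_8), 0.996 (F0_9), 0.851 (F1_1) and 0.633 (F1_mix), and Epithelial Cell lay at 0.787 (95% interval 0.681 to 0.904), inside that spread. They parted in the neural types outside Ependymal Cell. Lamb1 was at 0.0268 in CNS Neuron, 0.0344 in Neuroectoderm/Glia and 0.0301 in Neuronal Progenitor, whereas Lamc1 was at 0.172, 0.165 and 0.313 in the same order, the last close to its median deep type (0.325).

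Lamc3, a gamma chain of restricted use, was the most concentrated of the well-covered laminins. It reached 0.356 (95% interval 0.296 to 0.426) in Chondrocyte, 55.5 times the median deep type, against 0.0295 in Gut Mesenchyme, the next type. The 4 suspensions gave 0.207 (F0_8), 0.346 (F0_9), 0.565 (F1_1) and 0.342 (F1_mix), all above every value of the other deep types. Lamb2 was highest in Chondrocyte at 0.178 (95% interval 0.136 to 0.229) and in Ependymal Cell at 0.169, which were not separated. Lamb3, the beta partner of Lama3 in the epidermal laminin, was highest in Epithelial Cell in all 4 suspensions, at 0.0636 (95% interval 0.0363 to 0.103) from 16 UMIs.

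Among the deep types both nidogens and fibronectin had their highest pooled level in Chondrocyte, but not in every suspension. Nid1 reached 0.850 (95% interval 0.755 to 0.954) there, with 0.664 (F0_8), 0.748 (F0_9), 1.14 (F1_1) and 0.896 (F1_mix). Hematoendothelial followed at 0.671 (95% interval 0.542 to 0.822) and was the higher of the 2 in F0_8, so these types overlapped. Epithelial Cell, whose laminins were among the highest, held Nid1 at 0.00795 (95% interval 0.000963 to 0.0287) and Nid2 at 0.0159 (95% interval 0.00433 to 0.0407). Nid2 in Chondrocyte was 0.462 (95% interval 0.392 to 0.539), with 0.414 (F0_8), 0.369 (F0_9), 0.538 (F1_1) and 0.543 (F1_mix), beside 0.426 in Hematoendothelial, which was the higher in F0_8 at 1.04.

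Fn1 had 7961 UMIs in all and was high across mesenchyme. It was 2.33 (95% interval 2.17 to 2.49) in Chondrocyte, 2.21 (95% interval 2.11 to 2.31) in Gut Mesenchyme and 2.06 (95% interval 1.97 to 2.15) in Mesodermal Progenitor. In Chondrocyte the suspensions gave 2.66 (F0_8), 2.50 (F0_9), 2.27 (F1_1) and 1.83 (F1_mix), which overlapped the 1.93 to 2.38 of Gut Mesenchyme. In F1_mix Hematoendothelial was the highest type, at 2.54. CNS Neuron (0.161), Neuroectoderm/Glia (0.0929) and Erythroblast (0.0801) were at the low end.

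**Figure D2:**
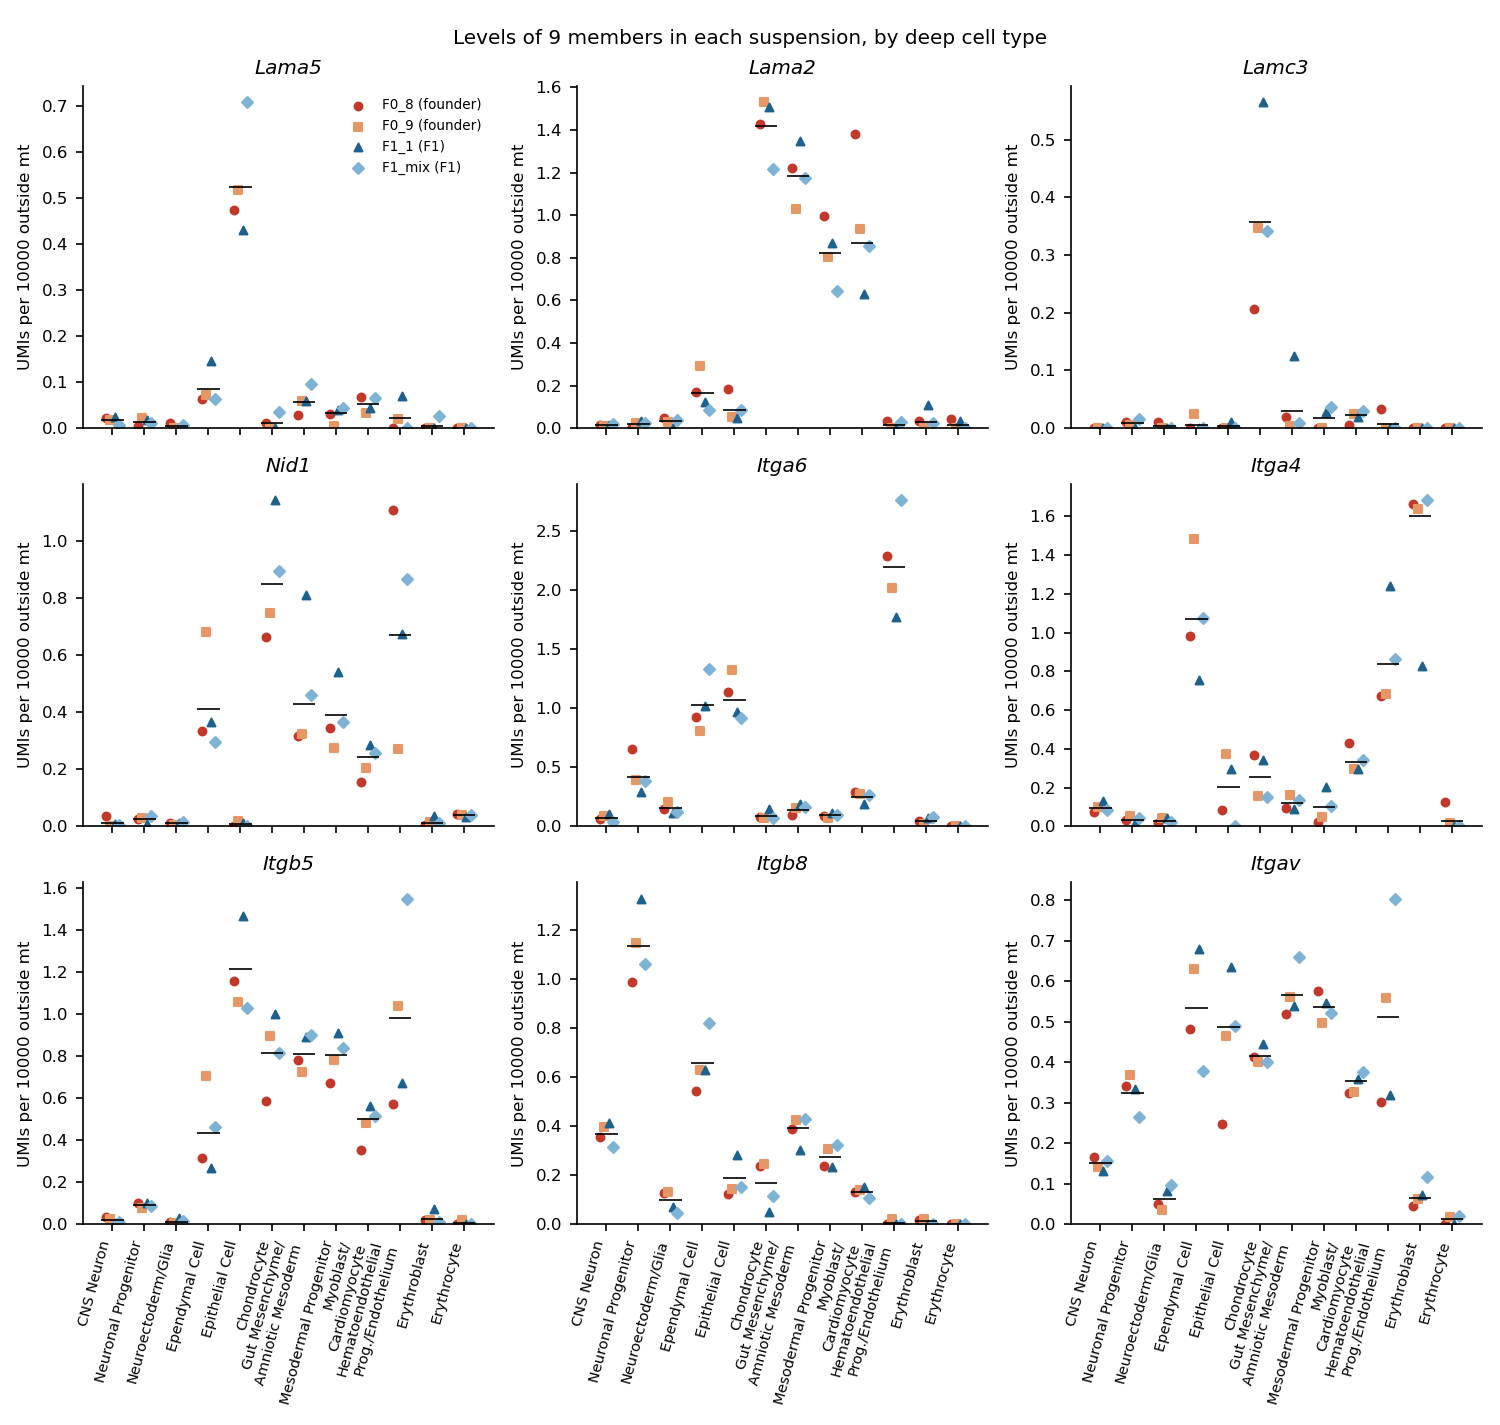
Level of 9 members (UMIs per 10000 gene UMIs outside mitochondrial genes, linear axes from 0) in each of the 12 deep types; each point is 1 suspension and the black line is the 4 suspensions pooled. Lama5 in Epithelial Cell, Lamc3 in Chondrocyte, Itga6 in Hematoendothelial and Itgb8 in Neuronal Progenitor stand above every point of the other types, whereas the points of Itgav and Nid1 overlap between types.

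Of the laminin receptors, Itga6, whose product pairs with beta1 or with beta4, was highest in Hematoendothelial at 2.19 (95% interval 1.95 to 2.46), 15.2 times the median deep type. Its level there was 2.28 (F0_8), 2.01 (F0_9), 1.77 (F1_1) and 2.75 (F1_mix), above every value of the other deep types. Epithelial Cell (1.07) and Ependymal Cell (1.03) followed and were not separated from each other. Itga3, the other main epithelial laminin receptor, was highest in Epithelial Cell in all 4 suspensions at 0.238 (95% interval 0.182 to 0.307). Itga7, the muscle laminin receptor, gave 10 UMIs in all types together, of which 3 in Neuroectoderm/Glia made up its highest type, and no level can be read from it.

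The collagen receptors had few UMIs, and 0 of the 4 members reached 100 in its highest type. Itga1, at 0.383 (95% interval 0.287 to 0.500), and Itga2, at 0.520 (95% interval 0.407 to 0.655), were highest in Hematoendothelial in all 4 suspensions, and for Itga2 no suspension of another deep type reached the lowest of the 4. Itga11, a mesenchymal collagen receptor, was highest in Chondrocyte at 0.204 (95% interval 0.159 to 0.258), with Gut Mesenchyme at 0.116. Itga10, known from cartilage, was highest in Neuronal Progenitor with 13 UMIs, at 0.0156 against 0.0146 in Chondrocyte, and its highest type differed between suspensions.

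The RGD receptors differed in their highest type. Itga8, a receptor of nephronectin and fibronectin in mesenchyme, was highest in Gut Mesenchyme at 0.537 (95% interval 0.490 to 0.588), with 0.473 (F0_8), 0.561 (F0_9), 0.597 (F1_1) and 0.573 (F1_mix), and Mesodermal Progenitor, at 0.521 (95% interval 0.476 to 0.570), was the higher in F0_8 and F0_9. Itgav, which binds several beta subunits, was the most even of them: 0.566 (95% interval 0.517 to 0.618) in Gut Mesenchyme was only 1.47 times the median deep type. In Gut Mesenchyme it was 0.520 (F0_8), 0.561 (F0_9), 0.538 (F1_1) and 0.660 (F1_mix), and that type was the highest in 0 of the 4 suspensions taken alone. Itga5, the classical fibronectin receptor, was highest in Hematoendothelial at 0.375 (95% interval 0.280 to 0.492), except in F1_mix, where Gut Mesenchyme was at 0.291 and Hematoendothelial at 0.279.

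Itga2b and Itgb3, which form the platelet fibrinogen receptor, were counted in very few cells. Itga2b gave 242 UMIs in 119 cells, and Itgb3 gave 143 in 39. The 4 cells with most Itga2b UMIs held 43.4% of them, and the same number of cells held 69.2% of the Itgb3 UMIs. Both were highest among deep types in Hematoendothelial, Itga2b with 1.28 (F0_8), 0.0415 (F0_9), 1.06 (F1_1) and 0 (F1_mix) and Itgb3 with 1.08 (F0_8), 0.0207 (F0_9), 0.814 (F1_1) and 0 (F1_mix), so that 2 of the 4 suspensions carried the level.

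In the shallow Endodermal Progenitor type the pooled levels were higher still, at 3.84 for Itga2b and 4.12 for Itgb3. A single barcode of F1_mix held 41 of the 42 Itga2b UMIs and 44 of the 45 Itgb3 UMIs of that type. It carried 77 UMIs of 5 megakaryocyte markers (Gp9, Gp1bb, Ppbp, Gp6 and Treml1), 10237 gene UMIs and 1.08% mitochondrial UMIs. Without it both genes fell to 0.101 in Endodermal Progenitor, which is 1 UMI each.

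Itga4, which with beta1 binds VCAM1 and a splice form of fibronectin, was highest in Erythroblast at 1.60 (95% interval 1.49 to 1.73). The suspensions gave 1.66 (F0_8), 1.64 (F0_9), 0.826 (F1_1) and 1.68 (F1_mix); F1_1, the low one, held 7 Erythroblast cells. Ependymal Cell followed at 1.07 (95% interval 0.924 to 1.23), with 0.984 (F0_8), 1.48 (F0_9), 0.753 (F1_1) and 1.08 (F1_mix). Hematoendothelial lay at 0.837 (95% interval 0.692 to 1.0) and was the highest type in F1_1. In Erythrocyte, where globin transcripts made up 69.6% of UMIs outside mitochondrial genes, Itga4 was 0.0259 (95% interval 0.00706 to 0.0663), and 0.0852 when globins were left out of the denominator, against 1.80 in Erythroblast on that scale.

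Itga9, the related receptor of tenascin-C and other matrix ligands, was highest in Chondrocyte at 0.897 (95% interval 0.799 to 1.0), with 0.806 (F0_8), 0.983 (F0_9), 0.696 (F1_1) and 1.09 (F1_mix). Hematoendothelial (0.830) and Gut Mesenchyme (0.762) lay inside that spread.

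Of the beta subunits, Itgb1, the common partner, was the broadest. It had 13555 UMIs and was highest among the deep types in Hematoendothelial at 3.0 (95% interval 2.72 to 3.31), 1.60 times the median deep type, with 3.70 (F0_8), 2.22 (F0_9), 3.11 (F1_1) and 3.44 (F1_mix). Chondrocyte (2.86) and Ependymal Cell (2.75) overlapped with it. Among the deep types Erythrocyte was lowest at 0.175 (95% interval 0.115 to 0.254), or 0.575 with globins left out, against 1.91 in Erythroblast on the same scale.

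Itgb8, whose product pairs with alpha v and is known from neuroepithelium, was highest in Neuronal Progenitor at 1.14 (95% interval 1.06 to 1.21), 6.31 times the median deep type. It was 0.990 (F0_8), 1.15 (F0_9), 1.33 (F1_1) and 1.06 (F1_mix), with Ependymal Cell next at 0.659 (95% interval 0.545 to 0.790) and no suspension of another deep type as high. Itgb5, also a partner of alpha v, was highest in Epithelial Cell at 1.21 (95% interval 1.08 to 1.36), with 1.15 (F0_8), 1.06 (F0_9), 1.47 (F1_1) and 1.03 (F1_mix), and Hematoendothelial exceeded it in F1_mix.

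Itgb4, the hemidesmosome subunit, and Itgb6, a partner of alpha v in epithelia, were highest in Epithelial Cell in all 4 suspensions, at 0.139 (95% interval 0.0969 to 0.193) and 0.111 (95% interval 0.0739 to 0.161). They rested on 35 and 28 UMIs. Itgb2, the leukocyte subunit, was counted among deep types only in Hematoendothelial, at 0.289 (95% interval 0.206 to 0.393), and Erythroblast, at 0.0565; the other 10 had 0 UMIs. Itgb7, a partner of alpha 4 on blood cells, was highest in Hematoendothelial in all 4 suspensions, at 0.108 (95% interval 0.0606 to 0.179) from 15 UMIs.

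The Hematoendothelial type mixed cells with different receptors. Cells were split by UMIs of markers that are no members (endothelial Cdh5, Pecam1, Kdr, Emcn, Cldn5, Esam and Tie1; macrophage C1qa, C1qb, C1qc, Csf1r, Fcer1g, Tyrobp and Mrc1; megakaryocyte Gp9, Gp1bb, Ppbp, Gp6 and Treml1), a cell joining a set with 3 or more UMIs of it and at least 3 times those of each other set. Of its 76 cells, 25 joined the endothelial set, 46 the macrophage set and 2 the megakaryocyte set, and 3 joined none.

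Lama4, Nid1 and Fn1 lay almost wholly in the endothelial cells. Lama4 was at 2.65 (2.17 to 3.20) there, Nid1 at 2.28 (1.84 to 2.79) and Fn1 at 4.78 (4.13 to 5.50). These 25 cells were 7 (F0_8), 7 (F0_9), 6 (F1_1) and 5 (F1_mix), and the suspensions differed widely. Lama4 was 4.11 (F0_8), 3.55 (F0_9), 1.27 (F1_1) and 0.541 (F1_mix), Nid1 2.42 (F0_8), 1.32 (F0_9), 2.01 (F1_1) and 3.65 (F1_mix) and Fn1 4.03 (F0_8), 2.03 (F0_9), 3.80 (F1_1) and 11.1 (F1_mix). The macrophage cells held 0 UMIs of Lama4 and of Nid1 among 855727, which allows a level of up to 0.0351, and Fn1 at 0.117 (0.0560 to 0.215). Lamc1 and Nid2 were at 1.19 (0.877 to 1.58) and 1.19 (0.877 to 1.58) in endothelial cells, and at 0.222 (0.134 to 0.347) and 0.129 (0.0642 to 0.230) in macrophage cells. Of the receptors, Itgb1 was 5.52 (4.82 to 6.30) in endothelial and 1.73 (1.46 to 2.03) in macrophage cells, Itga1 1.29 and 0.0117, and Itga2 1.56 and 0.0467.

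Itgb2, Itgb5 and Itga4 went the other way. Itgb2 was 0.409 (0.285 to 0.569) in macrophage cells with 0 UMIs in endothelial cells (which allows up to 0.0743), Itgb5 was 1.51 (1.26 to 1.79) against 0.173 (0.0697 to 0.357), and Itga4 was 1.15 (0.930 to 1.40) against 0.0991 (0.0270 to 0.254). Itga6 was high in both, at 2.72 (2.24 to 3.28) and 2.04 (1.75 to 2.37). The 2 megakaryocyte cells, 1 each in F0_8 and F1_1, held 54 of the 70 Itga2b UMIs and 44 of the 56 Itgb3 UMIs of the type.

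In Myoblast/Cardiomyocyte, 118 of 644 cells joined a skeletal set (Myod1, Myog, Myf5, Chrna1, Pax7 and Msc), 4 a cardiac set, and 522 stayed unassigned. Lama2 was 2.76 (2.56 to 2.97) in skeletal and 0.366 (0.328 to 0.406) in unassigned cells, and Itga4 0.998 (0.879 to 1.13) and 0.155 (0.131 to 0.182). Itga8 had the opposite order, 0.0819 and 0.352, and Itgb1 was alike at 1.94 (1.77 to 2.12) and 1.92 (1.84 to 2.01).

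**Figure D3:**
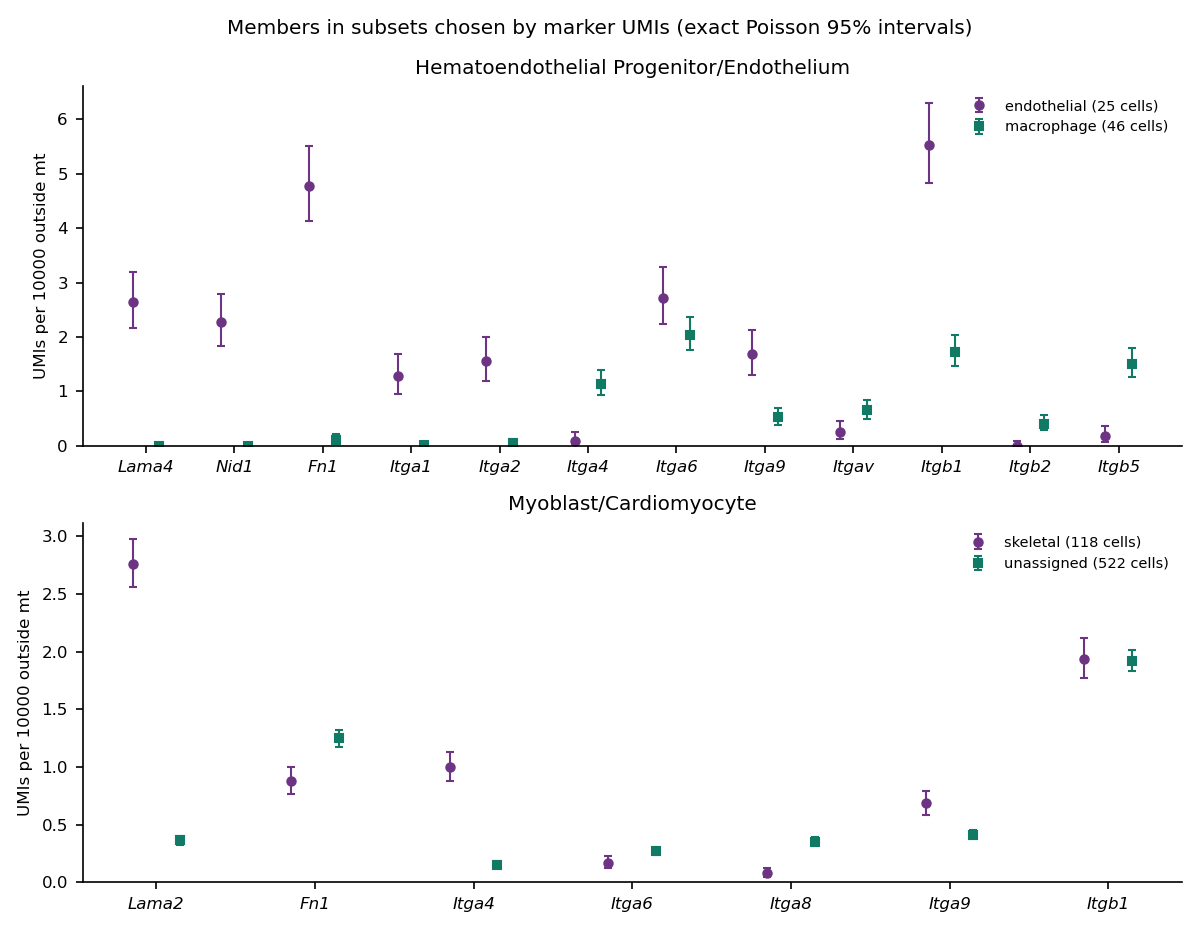
Levels of selected members (UMIs per 10000 gene UMIs outside mitochondrial genes) in subsets of 2 annotated types split by marker genes that are no members; points are pooled cells and bars exact Poisson 95% intervals for counting error. Endothelial cells stand apart in Lama4, Nid1, Fn1, Itga1 and Itga2 and macrophage cells in Itga4 and Itgb5, and skeletal cells in Lama2 and Itga4.

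The pooled level of 22 members was higher in a shallow type than in every deep type, for 13 in Hepatocyte, 5 in Endodermal Progenitor, 3 in Foregut and 1 in Midgut, and for 11 of the 22 the 95% intervals were apart. Among the 18 members with 100 or more UMIs in their highest deep type these counts were 13 (72.2%) and 8 (44.4%), against 49.2% and 28.2% of the 9443 genes of that depth. In the type annotated Hepatocyte, Fn1 was 3.79 (95% interval 3.42 to 4.20), Lama2 2.87 (95% interval 2.54 to 3.22), Itga9 2.17 (95% interval 1.89 to 2.48) and Itga8 1.53 (95% interval 1.29 to 1.79), each above every deep type. Itgav was 1.43 (95% interval 1.21 to 1.69), Lamb1 1.42 (95% interval 1.20 to 1.68) and Itga11 0.448 (95% interval 0.325 to 0.601) there, also with intervals above those of their highest deep type. Itgb5 (1.56), Itgb1 (3.09), Lama4 (1.02), Itga5 (0.509) and Nid2 (0.468) were higher there too, but with intervals that overlapped. Over the suspensions Fn1 ran from 2.78 to 4.92 and Lama2 from 2.25 to 3.48. In Foregut, Lama1 was 2.47 (95% interval 1.92 to 3.12) and Itgb8 2.43 (95% interval 1.89 to 3.08), both above Neuronal Progenitor, their highest deep type. In single suspensions these ran from 0.744 to 3.78 and from 0.893 to 4.18, so the Foregut values of F0_8 reached down to those of the deep type. Free RNA, estimated from Y-linked genes in suspensions with few Y-bearing cells, made up 1.14% to 2.21% of the UMIs of deep types outside the red blood cells, and 12.6% to 24.6% of those of the shallow types. The level that free RNA would add in the shallow types was 0.335 for Fn1, 0.104 for Lama2 and 0.0653 for Lama1 and for Itgb8, below the values above. The part of the low depth and the high mitochondrial share in these levels was not tested.

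Partner genes were then compared in their pattern over the 12 deep types, as the Pearson correlation of log2(level + 0.01), a description over points that share 1 library. Nid1 and Nid2 followed each other most closely, at r = 0.94 (0.81 to 0.92 in single suspensions), and Nid2 ranked number 4 of 13046 genes by likeness to Nid1. Itgav and Itgb5 gave r = 0.91 (0.85 to 0.93), Itga5 and its ligand Fn1 0.87 (0.48 to 0.90), and Itga3 and its ligand chain Lama5 0.86 (0.66 to 0.85), where Lama5 ranked number 35. The other ranks were lower, Itgb5 being number 314 by likeness to Itgav, Fn1 number 310 to Itga5 and Lamc1 number 430 to Lamb1, so other genes reached an r of this size as well.

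The r of some pairs rested on the red blood cell types. Without Erythroblast and Erythrocyte, the r of Itgav and Itgb8 went from 0.60 to 0.06 and Lama1 and Lamc1 from 0.67 to 0.08, and that of Itga8 and its ligand gene Npnt from 0.40 to 0.16, while Lamb1 and Lamc1 stayed at 0.81 beside 0.83. Itga4 and its ligand Vcam1 gave r = 0.13. Itga2b and Itgb3 gave 0.86 pooled but -0.33 to 0.90 in single suspensions.

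RefSeq promoter windows (GRCm38.p6, 250 bases before to 50 after a start) were at hand for 22 of the 34 members, 25 windows in all. They are shown for Itgav and Itgb5, whose products pair, for Lama5, the epithelial chain, and for Itga2b, the megakaryocyte subunit. Each is written 5′ to 3′ on the strand of its gene. Capitals mark GGGCGG or its reverse complement CCGCCC (a GC box) in Itgav at chr2:83724147-83724446 (plus strand), Itgb5 at chr16:33829415-33829714 (plus strand) and Lama5 at chr2:180225810-180226109 (minus strand), and AGGAAG (an ETS motif core) in Itga2b at chr11:102469834-102470133 (minus strand).
Itgav: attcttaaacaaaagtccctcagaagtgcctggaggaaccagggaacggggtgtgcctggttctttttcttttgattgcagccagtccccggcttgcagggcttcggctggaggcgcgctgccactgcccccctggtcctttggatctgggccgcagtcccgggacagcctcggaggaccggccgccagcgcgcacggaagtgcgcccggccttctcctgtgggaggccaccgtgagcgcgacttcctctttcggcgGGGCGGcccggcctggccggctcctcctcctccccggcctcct
Itgb5: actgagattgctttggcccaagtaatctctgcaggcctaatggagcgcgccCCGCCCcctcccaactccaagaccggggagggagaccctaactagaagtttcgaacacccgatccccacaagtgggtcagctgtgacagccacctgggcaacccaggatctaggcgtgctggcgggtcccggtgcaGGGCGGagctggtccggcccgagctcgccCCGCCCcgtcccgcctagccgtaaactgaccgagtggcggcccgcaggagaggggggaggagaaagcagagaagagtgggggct
Lama5: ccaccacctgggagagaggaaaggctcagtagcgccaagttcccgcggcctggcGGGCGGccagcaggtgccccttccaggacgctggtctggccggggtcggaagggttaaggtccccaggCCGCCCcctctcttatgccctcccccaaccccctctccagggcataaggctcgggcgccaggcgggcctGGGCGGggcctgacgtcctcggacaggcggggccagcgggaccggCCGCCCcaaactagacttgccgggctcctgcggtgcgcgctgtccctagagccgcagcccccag
Itga2b: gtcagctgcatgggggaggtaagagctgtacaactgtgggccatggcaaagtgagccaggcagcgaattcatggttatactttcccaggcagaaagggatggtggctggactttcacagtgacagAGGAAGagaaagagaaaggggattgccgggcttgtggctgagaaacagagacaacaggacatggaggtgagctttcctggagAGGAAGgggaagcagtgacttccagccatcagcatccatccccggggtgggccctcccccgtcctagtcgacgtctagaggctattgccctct

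On either strand, GGGCGG was in 12 of the 25 member windows and in 35.7% of all 32851 promoter windows of that length, and AGGAAG was in 13 and in 35.4%. The GATA letters AGATAA were in 0 of the 25 and in 11.2% of all, TATAAA in 0 and 13.6%, the AP-1 letters TGANTCA in 2 and 7.81%, and CCAAT in 4 and 37.4%. GGGCGG occurred 1 time in the Itgav window, 3 times in that of Itgb5 and 4 times in that of Lama5, and AGGAAG 2 times in that of Itga2b. These are matches of letters in short windows and no evidence of binding.

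The founders were compared with the F1 suspensions within each annotated type, the only labelled contrast, by edgeR's quasi-likelihood test on summed counts (2 against 2, 13 types with 20 or more cells in every suspension). In 157 tests of 24 members, 1 passed an adjusted p of 0.05 (0.637%), against 0.752% of all 99241 tests, and the share of members is thus near that of all genes. The other 10 members passed the filter on low counts in none of the 13 types. Hematoendothelial, where Itga2, Itga2b, Itgb2, Itgb3 and Itgb7 of these were highest, did not have 20 cells in every suspension and was not tested. At an unadjusted p under 0.05 there were 31 of 157 (19.7%), 17 of them lower in founders, against 10.2% of all tests. With 2 against 2, an exact permutation test of a single gene cannot give less than p = 0.333, and embryo, generation and preparation of a suspension cannot be told apart.

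The member that passed was Itga4 in Mesodermal Progenitor, where 1.07% of the tested genes passed. Its level was 0.0223 and 0.0456 in the founders and 0.202 and 0.107 in the F1 suspensions (log2 difference, founder minus F1, -2.22 ± 0.46 SE, edgeR adjusted p = 0.0317). The groups did not overlap, but the counts were 5, 8, 52 and 30 UMIs, and 34 of the 496 cells had any. The cell with most of them held 20 of the 52 UMIs in F1_1 and 11 of the 30 in F1_mix. Leaving out the highest cell of each suspension gave -2.24 (adjusted p = 0.0944), a step chosen after the data were seen. Of 9 other alternatives, all kept the direction (log2 difference -2.77 to -1.70) and 5 kept the call. The call ended with DESeq2 (adjusted p = 0.283), and with edgeR without F0_8 (0.37), without F0_9 (0.0658) and without F1_1 (0.169).

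Itga4 was tested in other types too, and none of those tests passed. Its log2 difference was above 0 in Epithelial Cell (0.479), Ependymal Cell (0.391), Myoblast/Cardiomyocyte (0.150), Chondrocyte (0.105) and Gut Mesenchyme (0.0693). It was below 0 in CNS Neuron (-0.289). Cells of another type were looked for in the Mesodermal Progenitor sums. The 6 skeletal markers were at 0.219 and 0.165 in the founders and 0.233 and 0.218 in the F1 suspensions, the 7 macrophage markers at 0.0224, 0.0285, 0.0155 and 0.0358, and the 7 endothelial markers at 0.0224, 0.0228, 0.0427 and 0.0286 in the same order. Of the 5 megakaryocyte markers, 3 were at 0, and their 9 UMIs were all in F1_1. In the same order, the 5 cardiac markers were at 0.00894, 0.0285, 0.0427 and 0.0143, and the 4 epidermal markers held 1, 1, 1 and 2 UMIs. The Chondrocyte markers were higher in founders, at 7.10 and 6.37 against 4.28 and 5.51, and the Epithelial Cell markers were lower, at 0.0939 and 0.103 against 0.256 and 0.326. Their part in the Itga4 difference was not tested.

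No other member passed the test, and the next by unadjusted p were Lama4, Lama1, Nid1 and Itga9. Lama4 in Hepatocyte was 1.52 and 1.51 in the founders and 0.527 and 0.612 in the F1 suspensions (log2 difference, founder minus F1, 1.43 ± 0.32 SE, edgeR adjusted p = 0.137). Hepatocyte is 1 of the 4 shallow types. Lama4 was tested in 6 types, and its estimate was above 0 in all 6, but only 0.0755 in Chondrocyte and 0.0366 in Myoblast/Cardiomyocyte. The types share the same 4 suspensions, so like signs across types, for Lama4 and for Lama1 below, are not independent of each other. Lama1 in Mesodermal Progenitor was 0.0760 and 0.148 in the founders and 0.256 and 0.258 in the F1 suspensions (log2 difference, founder minus F1, -1.25 ± 0.28 SE, edgeR adjusted p = 0.0556), and its estimate was below 0 in 8 of 10 types, among them Chondrocyte with 0.479 and 0.313 in the founders and 0.801 and 0.767 in the F1 suspensions.

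Nid1 in Gut Mesenchyme was 0.316 and 0.324 in the founders and 0.811 and 0.461 in the F1 suspensions (log2 difference, founder minus F1, -0.97 ± 0.25 SE, edgeR adjusted p = 0.101). Itga9 in Neuroectoderm/Glia was 0.0551 and 0.0891 in the founders and 0.165 and 0.224 in the F1 suspensions (log2 difference, founder minus F1, -1.46 ± 0.37 SE, edgeR adjusted p = 0.120). None of these differences passed the adjusted threshold.

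**Figure D4:**
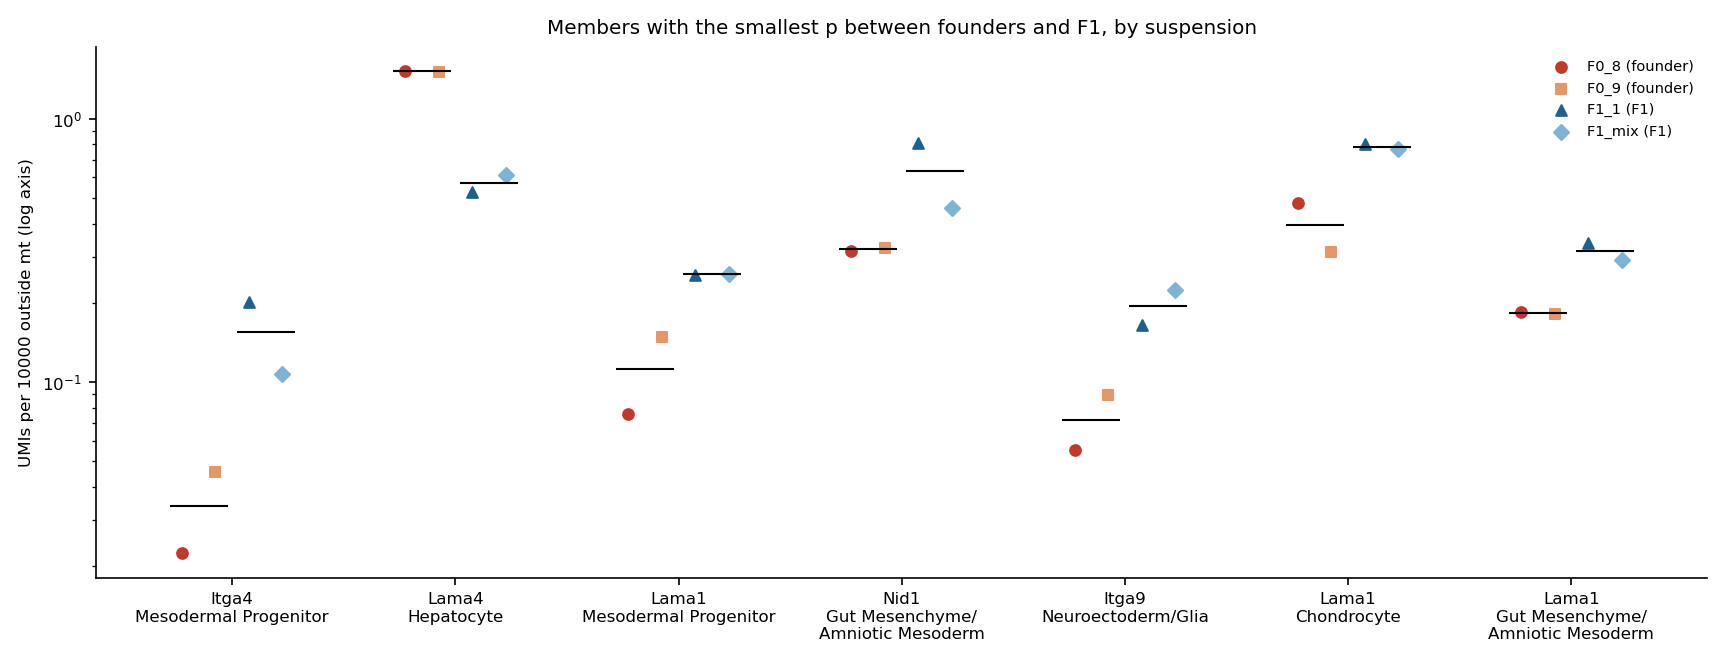
Levels (UMIs per 10000 gene UMIs outside mitochondrial genes, log axis) of the members with the smallest p between founders (red and orange) and F1 (blue), in the type named under each, with Lama1 in 2 further types; points are suspensions and black lines the mean of the 2 suspensions. Itga4 in Mesodermal Progenitor, the only member past the adjusted threshold, had 0.0223 and 0.0456 in the founders and 0.202 and 0.107 in the F1 suspensions.

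The wider pathway was covered by 51 further genes in 3 lists. Of the 22 integrin adaptors and kinases, which link the integrin tail to actin, 4 were restricted across the deep types, of 12 other basement membrane genes and laminin receptors 3 were, and of 17 other integrin ligands 12 were. Among those with 100 or more UMIs in the highest type the counts were 3 of 17, 3 of 12 and 11 of 14, against 18.8% of all genes of that depth, so the first 2 lists lay near the share of all genes.

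Between founders and F1, 7 of 345 tests on 4 of these genes passed (2.03%), 3 of them higher and 4 lower in founders, beside the 0.752% of all tests. Not all of these 7 kept the call under every alternative. Egfl6, an RGD ligand of integrins, was higher in founders in 3 types. In Chondrocyte it was 0.741 and 0.983 in the founders and 0.223 and 0.330 in the F1 suspensions (log2 difference, founder minus F1, 1.61 ± 0.25 SE, edgeR adjusted p = 0.00830), and the differences in Mesodermal Progenitor and Gut Mesenchyme were 1.31 ± 0.18 and 1.18 ± 0.24. Col18a1, a basement membrane collagen, was lower in founders in Gut Mesenchyme, at 0.244 and 0.274 in the founders and 0.479 and 0.670 in the F1 suspensions (log2 difference, founder minus F1, -1.20 ± 0.19 SE, edgeR adjusted p = 0.0134), and in Mesodermal Progenitor (-1.0 ± 0.20).

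Fras1, a matrix protein of the epidermal basement membrane, was lower in founders in Gut Mesenchyme, at 0.792 and 1.01 in the founders and 1.35 and 1.65 in the F1 suspensions (log2 difference, founder minus F1, -0.79 ± 0.14 SE, edgeR adjusted p = 0.0215). Vcl, the adaptor vinculin, was lower in Neuroectoderm/Glia, at 0.308 and 0.327 in the founders and 0.620 and 0.604 in the F1 suspensions (log2 difference, founder minus F1, -0.95 ± 0.16 SE, edgeR adjusted p = 0.0425).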

How the data were processed

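The deposited files held raw UMI counts per gene and cell for 1 droplet library of 4 suspensions, which the authors made on GRCm38 with the EGFP sequence added and split by multiplexing oligo; the headers of the count files name Cell Ranger 7.2.0. Cell types were read from the authors' deposited cell table, made in Seurat after SoupX, RECODE and DoubletFinder, so doublets were removed by the authors and not called again. Of that table, 18 columns of per-cell values (other totals, EGFP calls, cluster numbers and doublet scores) were not used. A planned split of Epithelial Cell by markers is not reported here. In total 328 barcodes without a type were left out. Depth was 16052917 to 19160116 gene UMIs per suspension. Intervals are exact Poisson 95% intervals, and intervals and limits of 3 UMIs for a count of 0 cover counting error only.

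UMIs were summed per type and suspension and divided by gene UMIs outside mitochondrial genes, in Python 3.11.15 with numpy 2.4.6, pandas 2.3.3 and scipy 1.17.1. Founders were compared with F1 by edgeR 4.0.16 in R 4.3.3 (quasi-likelihood test, TMM, filterByExpr, Benjamini-Hochberg over all genes of a type); DESeq2 1.42.0 was an alternative. p-values measure the spread between suspensions, of which F1_mix is no single embryo. For up to 3 members per role with 100 or more UMIs in the highest type, those with the largest ratio to the median deep type, values are given per suspension; between founders and F1, members that passed and the next by p, up to 5, are named, with every pathway gene that passed. The members and lists were chosen with earlier results of these data known.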

Additional observations from a re-analysis of the deposited data

Results flagged for a closer look

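The 328 deposited barcodes that the cell table does not list held 1612 UMIs of 32 of the 34 members among 1617082 gene UMIs outside mitochondrial genes. The summed level of the members there was 9.97 per 10000, against 8.34 in the cells used and 7.58 in droplets of 1 to 100 gene UMIs.

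Itgb8 and Lama1 had estimates of opposite sign between founders and F1 in different annotated types. For Itgb8 the log2 difference was -1.27 in Foregut and 1.46 in Chondrocyte, and for Lama1 it was -1.42 in Foregut and 1.42 in Ependymal Cell. None passed the test, with edgeR adjusted p of 0.179 and 0.164 for Itgb8 and 0.102 and 0.692 for Lama1 in the same order, on as few as 3 UMIs in a suspension. The difference between the types was not tested, and Foregut is one of the 4 shallow types.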

How the results depend on the processing

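Under the alternatives, 28 values of the main results, all counts or levels, stayed with the value reported and 9 moved. Of the further values, 419 stayed and 43 moved. Another 20 were differences between founders and F1 that kept their direction but no longer passed. Between founders and F1, 1 pair of a member and a type passed. DESeq2 gave 0 (9 at an unadjusted p under 0.05, against 31 with edgeR), a table with no filter on low counts gave 12 of 385, and leaving out 1 suspension gave 2 (without F0_8) to 7 (without F0_9 or F1_mix), with 6 without F1_1. Over all genes these counts were 746, 434, 3154 and 511 to 1585. Itga2b and Itgb3 in Endodermal Progenitor, which rest on 1 F1_mix barcode, passed without F0_8, F0_9 or F1_1 and with no filter; Lama1 in Mesodermal Progenitor passed without F0_9, F1_1 or F1_mix and with no filter. Lama4 in Hepatocyte passed without F0_9 and with no filter, Nid1 in Gut Mesenchyme without F1_mix and with no filter, Lama1 in Chondrocyte without F1_1 or F1_mix, and Itga9 in Neuroectoderm/Glia with no filter. Lama1 in Epithelial Cell passed without F0_9 or F1_1 and with no filter (log2 -3.72, -2.75 and -2.12), Lama4 in Ependymal Cell without F1_1 and with no filter, and Itga9 in Mesodermal Progenitor without F1_mix and with no filter. In 1 setting each, Lama1 in Foregut and Lama2 in Myoblast/Cardiomyocyte passed without F0_9, Lamc3 in Gut Mesenchyme and Nid1 in Mesodermal Progenitor without F1_mix, and Lama1 in Gut Mesenchyme and Lamc3 in Mesodermal Progenitor with no filter. Without that barcode, a step chosen after seeing the data, both levels went from 3.84 and 4.12 to 0.101. Itga4 in the skeletal cells was 1.10 when 5 UMIs and 5 times other sets were asked for, which left 0 cardiac cells and 1 megakaryocyte cell. The cause of the other changes was not tested. The highest deep type stayed the same for 28 to 34 of the 34 members, and 15 or 16 of the 16 restricted members stayed restricted. With 2 suspensions a side, a lone sample left by leaving 1 out is assumed to vary like the others. No paired analysis was possible because the suspensions share no replicate numbers. Depth limits the 16 members with under 100 UMIs in their highest type.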
